A study of Mus musculus with 8 samples.

Results

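The aquaporins of mouse molar enamel organ were followed in pups lacking Wdr72 and in wild-type pups. The genes described are Aqp1, Aqp3, Aqp4, Aqp5 and Aqp11, taken by gene name from the deposited table of read counts. They are 5 of 54532 genes in that table and 5 of 12 aquaporin genes in it. The KO group held 4 libraries (KO 1, 3, 4 and 5) from wdr72-/- pups, and the WT group held 4 libraries (WT 2, 3, 4 and 5) from wild-type pups. Both groups are labelled as C57BL/6, as first-molar enamel organ cells and as ameloblasts, the epithelial cells that make enamel. For both groups the stated age is P12, while the protocol describes dissection on day 13. Which part of Wdr72 was removed, the sex of the pups and whether a library came from 1 pup are not stated in the labels. All spreads below are therefore those between these libraries. The pulp had been taken out and the rest of the molar was homogenised, so RNA of other tissue on the molar could enter.

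Aquaporins are tetrameric membrane channels that let water cross a cell membrane along an osmotic gradient. The aquaglyceroporins among them, such as Aqp3, Aqp7 and Aqp9, also pass glycerol. During enamel maturation the ameloblasts withdraw matrix protein and water from the enamel while mineral takes their place. WDR72 is a WD40-repeat protein of these cells, and mutations in its gene are a known cause of hypomaturation amelogenesis imperfecta.

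The aquaporin RNA of these libraries was nearly all Aqp1, and Aqp1 was at a similar level in both groups. Aqp3 was at 40.8% of the WT mean in KO and Aqp11 at 75.2%, with no overlap between groups for either gene. Aqp4 ranged between 0.273 and 6.19 CPM in KO and between 0.509 and 2.10 CPM in WT, and Aqp5 was close to absent. The 5 genes were chosen by name from a channel family with the KO against WT levels of these same libraries already known, so their levels and fold changes are given as a description, with no test of the genes as a set.

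The stretch before the start of transcription is printed for Aqp1, the gene with the highest level, and for Aqp3, the gene with the lowest KO level relative to WT among those counted in every library. Both sequences are the 250 bases upstream of the RefSeq start on GRCm38.p6, 5′ to 3′ on the gene's own strand, at chr6:55336049-55336298 (plus strand) and chr4:41098184-41098433 (minus strand). Capitals mark every match, on either strand, to one of 4 motifs, namely TATAAA for the TATA box, GGGCGG for the GC box, CACGTG for the E-box and CCAAT for the box of that name.
Aqp1: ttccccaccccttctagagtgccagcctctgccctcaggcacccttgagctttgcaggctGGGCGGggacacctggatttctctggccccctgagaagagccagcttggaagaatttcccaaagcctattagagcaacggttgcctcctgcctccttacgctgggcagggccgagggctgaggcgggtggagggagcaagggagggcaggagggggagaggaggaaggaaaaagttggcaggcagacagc
Aqp3: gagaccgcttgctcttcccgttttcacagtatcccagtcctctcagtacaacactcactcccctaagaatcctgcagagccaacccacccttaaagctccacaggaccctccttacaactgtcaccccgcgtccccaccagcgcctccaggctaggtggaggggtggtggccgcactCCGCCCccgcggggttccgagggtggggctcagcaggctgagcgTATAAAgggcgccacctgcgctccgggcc
The Aqp3 stretch held TATAAA starting 29 bases before the start and, on the opposite strand, a GC box 73 bases before it. The Aqp1 stretch held a GC box 190 bases before its start, and CCAAT or CACGTG occurred in neither. The RefSeq start of Aqp1 lies upstream of the gene start in the deposited table. The marked matches did not overlap. Of 32851 mouse stretches of the same length, 12.4% held TATAAA, 32.7% GGGCGG, 33.8% CCAAT and 6.02% CACGTG on either strand. GC content was 62% in the Aqp1 stretch and 64% in the Aqp3 stretch, against a median of 52.4% over all stretches. These are matches of letters, and no binding was measured here.

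The libraries held 18430132 to 21887462 reads in KO and 17084475 to 21505301 in WT. Levels are given as CPM, read counts scaled to the size of each library after TMM normalization, which corrects for differences in library composition. Wdr72 was at 102, 37.8, 24.9 and 15.8 CPM in KO 1, 3, 4 and 5, against 173, 245, 327 and 227 CPM in WT 2, 3, 4 and 5. Each KO library was thus below each WT library, and KO 1 kept the most. KO 5 had a mean correlation of 0.965 with the other libraries, against 0.980 to 0.983 for the rest. Ambn, Amelx, Klk4 and the other 6 enamel organ markers summed to 59794 to 81260 CPM in KO and 53426 to 97738 CPM in WT, so that the labelled tissue was present in every library. Markers of other tissue were present too: the 5 odontoblast genes summed to 29034 to 56840 CPM in KO and 27554 to 55094 CPM in WT. In edgeR's quasi-likelihood test over 16205 genes, 5 genes passed an adjusted p of 0.05 (0.0309%), 2541 had an unadjusted p under 0.05 (15.7%), and 1774 had groups that did not overlap (10.9%).

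Of the 5 aquaporins described, 4 passed the filter on low counts and Aqp5 did not. By edgeR 0 of the 4 passed the adjusted threshold and 2, Aqp3 and Aqp11, had an unadjusted p under 0.05. Wdr72 itself also missed the adjusted threshold in edgeR, at an adjusted p of 0.080. DESeq2 passed Aqp3, where it passed 2.86% of all genes (1.04% lower in KO). A limma voom fit that weighted the libraries by quality, called limma voom from here on, passed Aqp3 and Aqp11, where it passed 6.62% of all genes (2.28% lower in KO). Both genes were lower in KO and had groups that did not overlap. Over all genes, by edgeR, 0.0123% were higher and 0.0185% lower past the adjusted threshold, 6.98% were lower at an unadjusted p under 0.05, and 5.44% were lower with no overlap. The member counts describe genes chosen with such values known, and nothing is read from them against the shares over all genes.

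**Figure D1:**
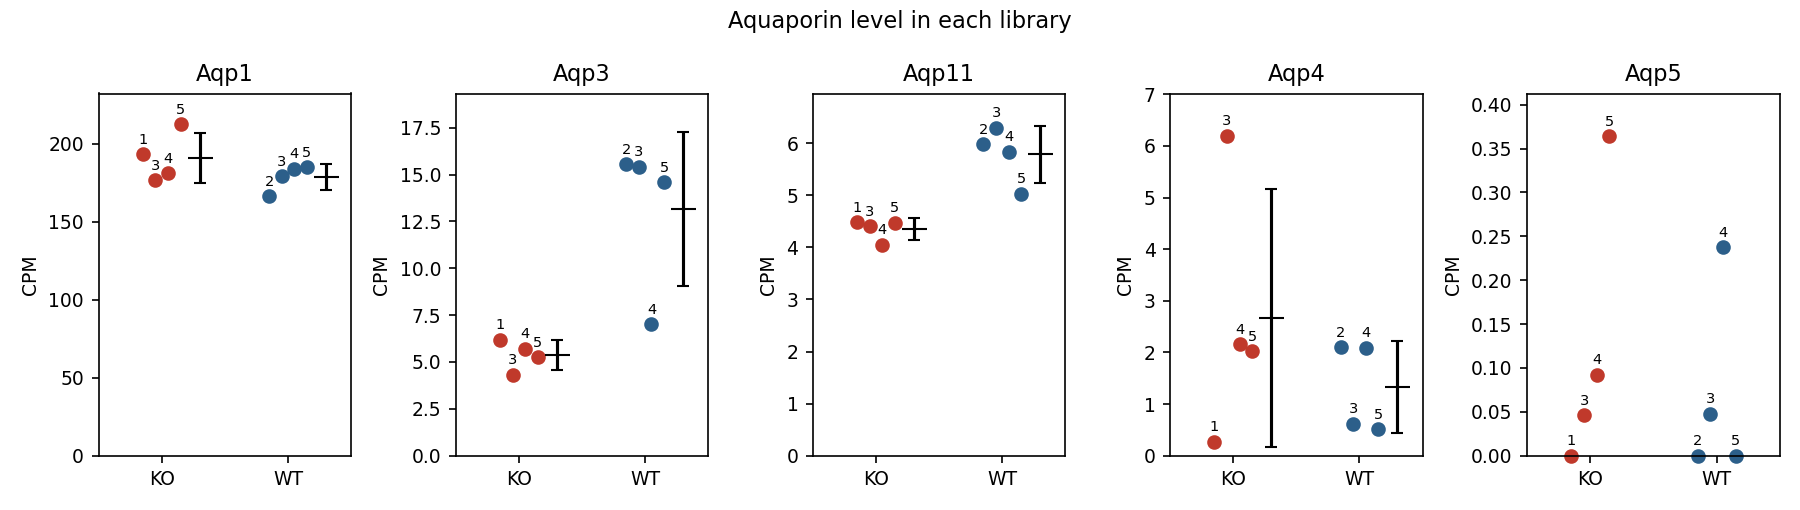
Level of Aqp1, Aqp3, Aqp11, Aqp4 and Aqp5 in CPM (linear axes from 0) in each KO library (red, left) and WT library (blue, right), with the library number above each point. The black bar is the mean with its SD over 4 libraries, left out for Aqp5, which had 0 to 7 reads. Aqp3 and Aqp11 do not overlap between groups, WT 4 lies near the KO libraries for Aqp3, and KO 3 stands highest for Aqp4.

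Aqp1, the water channel of capillary endothelium and red blood cells, lies on chromosome 6 from 55336432 to 55348555 (GRCm38, plus strand, 4 exons after merging transcripts). It was at 193, 177, 181 and 213 CPM in KO 1, 3, 4 and 5, against 167, 179, 184 and 185 CPM in WT 2, 3, 4 and 5. KO 5 and KO 1 lay above all WT libraries, KO 3 and KO 4 lay among them, and WT 2 was the lowest of all. The mean was 191 ± 16.1 CPM in KO and 179 ± 8.48 CPM in WT (SD, n = 4 each), with a log2 fold change of 0.096 (SE 0.11), KO minus WT. Without KO 1 and KO 5 the log2 fold change was -0.0010 (SE 0.091). Aqp1 made up 91.9% to 94.5% of all aquaporin reads in KO and 87.2% to 91.7% in WT.

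The summed level of vessel markers was highest in the same KO libraries as Aqp1. The 10 endothelial markers summed to 519, 421, 425 and 511 CPM in KO 1, 3, 4 and 5. In WT 2, 3, 4 and 5 they summed to 419, 405, 418 and 415 CPM. Aqp1 was likewise higher in KO 1 and KO 5 than in KO 3 and KO 4. In WT the likeness did not hold, since WT 2 had the highest endothelial sum of that group and the lowest Aqp1 level. By edgeR 0 of the 10 endothelial markers passed the adjusted threshold, 4 had an unadjusted p under 0.05, all higher in KO, and the median log2 fold change was 0.26 against 0.021 over all genes. Of all 16205 genes tested, 1410 were higher in KO at an unadjusted p under 0.05. DESeq2 and limma voom passed 0 of the 10 endothelial markers. Not all members followed the sum: Kdr, a VEGF receptor, was at 80.4, 78.2, 72.8 and 62.1 CPM in KO 1, 3, 4 and 5, and Tek, an angiopoietin receptor, at 20.3, 22.4, 23.5 and 15.1 CPM, both lowest in KO 5. Plvap, a protein of capillary fenestrae, was at 72.9 ± 18.8 CPM in KO and 52.2 ± 3.19 CPM in WT, and Cldn5, an endothelial claudin, at 13.3 ± 5.84 and 8.46 ± 1.18 CPM in KO and WT. Pecam1, a general endothelial marker, was at 79.3 ± 7.62 CPM in KO and 81.1 ± 3.56 CPM in WT. The 10 erythroid markers summed to 2472, 1660, 1513 and 4661 CPM in KO 1, 3, 4 and 5. In WT 2, 3, 4 and 5 they summed to 1258, 1898, 2092 and 763 CPM, lowest in WT 5, the highest WT library for Aqp1. Of these markers 0 passed the adjusted threshold in edgeR, DESeq2 or limma voom. An unadjusted p under 0.05 in edgeR was found for 2 of them, against 15.7% of all genes. Among the 10 erythroid markers the log2 fold change was positive for 5 and negative for 5. Hbb-bs, a haemoglobin chain, was at 1287 ± 717 CPM in KO and 711 ± 275 CPM in WT, and Hba-a1, its partner chain, at 818 ± 521 CPM in KO and 433 ± 184 CPM in WT. None of the 20 markers was at 0 in all libraries. Their part in the Aqp1 level was not tested. In RNA from whole tissue, fewer cells of a type and less RNA per cell cannot be told apart, here and for every gene below.

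Aqp3, an aquaglyceroporin of basal keratinocytes and other stratified epithelia that passes water, glycerol and hydrogen peroxide, lies on chromosome 4 from 41092722 to 41098183 (minus strand, 6 merged exons). It was at 6.18, 4.31, 5.71 and 5.25 CPM in KO 1, 3, 4 and 5, against 15.6, 15.4, 7.03 and 14.6 CPM in WT 2, 3, 4 and 5. All KO libraries lay below all WT libraries, but WT 4 was closer to KO 1 than to any other WT library. The reads behind these levels were 94 to 124 in KO and 148 to 323 in WT. The mean was 5.36 ± 0.796 CPM in KO and 13.1 ± 4.10 CPM in WT (SD, n = 4 each), a log2 fold change of -1.29 (SE 0.24). Without WT 4 the log2 fold change was -1.51 (SE 0.16) and Aqp3 passed the adjusted threshold in edgeR. With the level of Xist as a covariate the log2 fold change was -0.47 (SE 0.24). Xist, the RNA of the silenced X chromosome, was at 249, 191, 356 and 177 CPM in KO 1, 3, 4 and 5, against 803, 839, 251 and 658 CPM in WT 2, 3, 4 and 5. WT 4 was thus the WT library nearest to KO for both Xist and Aqp3, and beyond this covariate the part of Xist, or of the sex makeup it marks, in the Aqp3 difference was not tested.

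Markers of differentiating keratinocytes were lower in KO beside Aqp3. Of 18 listed markers 15 were tested, and all 15 had a negative log2 fold change, with a median of -1.32 against 0.021 over all genes. Krt1 and Spink5 fell in edgeR, 11 passed in DESeq2 and 13 in limma voom, against 1.04% and 2.28% of all genes lower in KO by these tests. By edgeR 6 passed without WT 4 and 1, Krt1, with the Xist covariate, while 0 passed without KO 3, KO 4, WT 2 or WT 3 alone. Krt1, a keratin of suprabasal cells, was at 1.60 ± 0.232 CPM in KO and 9.96 ± 6.02 CPM in WT. Spink5, a protease inhibitor of stratified epithelium, was at 1.03 ± 0.235 CPM in KO and 5.21 ± 1.40 CPM in WT. Summed over the list, the level was 846, 727, 796 and 1063 CPM in KO 1, 3, 4 and 5, against 1697, 1647, 904 and 1395 CPM in WT 2, 3, 4 and 5. WT 4 was again the lowest WT library, and here it lay within the KO range. In 11 of the 15 tested markers WT 4 was the lowest WT library, as it was for Aqp3. Of the other 4, 3 went the other way: Krt1, Krt4 and Krt13, keratins of cornifying or mucosal layers, were highest in WT 4 of all WT libraries. Krt13 was at 15.3, 18.7, 16.7 and 45.3 CPM in KO 1, 3, 4 and 5, against 57.6, 58.3, 67.1 and 61.4 CPM in WT 2, 3, 4 and 5. None of the 18 markers was at 0 in all libraries, and Sprr1b had no read in any KO library. The 5 basal epithelial markers, among them Krt5, Krt14 and Trp63, had a median log2 fold change of -0.12, with 0 past the adjusted threshold and 0 at an unadjusted p under 0.05 in edgeR, and 0 past it in DESeq2 or limma voom. Krt15, a basal keratin, was at 34.1 ± 10.4 CPM in KO and 44.5 ± 9.32 CPM in WT, and Col17a1, a hemidesmosome collagen, at 875 ± 103 CPM in KO and 983 ± 118 CPM in WT. The part of these markers in the Aqp3 difference was not tested.

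The genes whose log2 CPM followed Aqp3 most closely over the 8 libraries, among 9734 protein-coding genes with a mean of at least 10 CPM, were Serpinb6b (Pearson r = 0.976), Krt6b (r = 0.974) and Mex3c (r = 0.965). Serpinb6b was at 17.2, 13.5, 17.4 and 17.1 CPM in KO 1, 3, 4 and 5, against 40.3, 39.8, 21.4 and 29.4 CPM in WT 2, 3, 4 and 5. Krt6b, a keratin of activated and oral keratinocytes whose level is uncertain because reads can be shared with its close paralog Krt6a, was at 35.1, 33.8, 35.6 and 42.9 CPM in KO, against 178, 154, 46.0 and 128 CPM in WT in the same library order. Both genes repeat the low value of WT 4, which is no separate result, since they were picked for their likeness to Aqp3 over these libraries. With the group means removed r was 0.908 for Serpinb6b, 0.914 for Krt6b and 0.887 for Mex3c. In all, 39 genes had an r of at least 0.9 with Aqp3. The points are 8 libraries that differ in genotype and in the marker sums given here. For Aqp3 and for the other aquaporins, these values thus order the genes and give no more. With group means removed, 1 of the 12 genes named in this way was kept among the most similar.

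**Figure D2:**
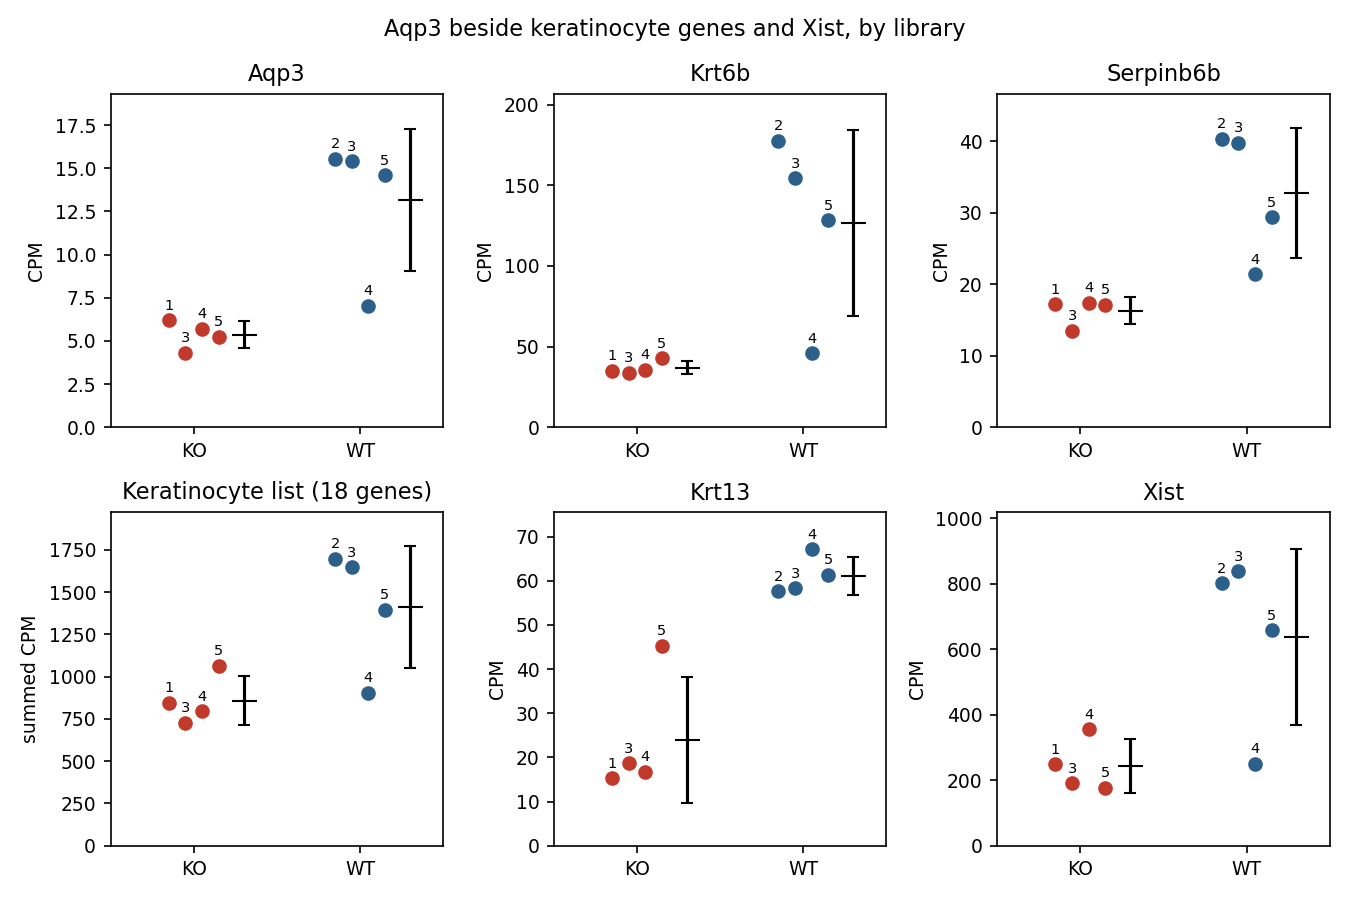
Levels in CPM (linear axes from 0) of Aqp3, Krt6b, Serpinb6b, the summed 18 keratinocyte markers, Krt13 and Xist in each KO library (red, left) and WT library (blue, right), with library numbers above the points and the mean with its SD as a black bar. WT 4 lies nearest to KO in all panels but that of Krt13, where it is the highest WT library at 67.1 CPM. Krt6b and Serpinb6b were picked for their likeness to Aqp3 over these libraries.

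Aqp11, an unorthodox aquaporin kept inside the cell at the endoplasmic reticulum, whose loss in mice is known to cause polycystic kidneys, lies on chromosome 7 from 97724006 to 97738289 (minus strand, 3 merged exons). It was at 4.48, 4.40, 4.05 and 4.47 CPM in KO 1, 3, 4 and 5, against 5.98, 6.30, 5.84 and 5.03 CPM in WT 2, 3, 4 and 5. The KO libraries lay close together and below all WT libraries, and WT 5 was the nearest. The mean was 4.35 ± 0.204 CPM in KO and 5.79 ± 0.540 CPM in WT (SD, n = 4 each), a log2 fold change of -0.41 (SE 0.15). The level rested on 82 to 96 reads per library in KO and 89 to 132 in WT. Pooled over a group, 352 reads gave 4.34 CPM (95% Poisson interval 3.90 to 4.82) in KO and 452 reads gave 5.81 CPM (5.29 to 6.37) in WT, intervals that cover counting error only. The genes most like Aqp11 over the 8 libraries were Bmi1 (r = 0.969), a polycomb protein, Tmem161b (r = 0.965) and Bmp4 (r = 0.965), a secreted growth factor of tooth development, among 39 genes with an r of at least 0.9. With the group means removed r was 0.845 for Bmi1, 0.83 for Tmem161b and 0.965 for Bmp4. Bmp4 was at 98.6, 85.6, 74.2 and 93.0 CPM in KO 1, 3, 4 and 5, against 149, 151, 127 and 95.2 CPM in WT 2, 3, 4 and 5. WT 5 was the nearest WT library to KO here too, but Bmp4 was picked for its likeness to Aqp11 over these libraries.

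Aqp4, the water channel of astrocyte end-feet that is also found in skeletal muscle fibres and some epithelia, lies on chromosome 18 from 15389394 to 15403684 (minus strand). It was at 0.273, 6.19, 2.16 and 2.03 CPM in KO 1, 3, 4 and 5, against 2.10, 0.620, 2.09 and 0.509 CPM in WT 2, 3, 4 and 5. KO 3 was the highest of all libraries and KO 1 the lowest, so that both ends of the range lay in KO. KO 3 held 59.7% of the KO reads of this gene. The mean was 2.66 ± 2.51 CPM in KO and 1.33 ± 0.886 CPM in WT (SD, n = 4 each), a log2 fold change of 1.01 (SE 0.68). Without KO 3 it was 0.17 (SE 0.63), so that the size of the fold change rested on that library, and with the Xist covariate it was 0.16 (SE 1.04).

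Markers of tissue known for Aqp4 were set beside it. The 10 skeletal muscle markers summed to 117, 96.5, 57.5 and 77.2 CPM in KO 1, 3, 4 and 5, and to 83.1, 89.4, 110.5 and 68.0 CPM in WT 2, 3, 4 and 5. KO 1, the lowest library for Aqp4, was the highest for muscle. By edgeR 0 of the 9 tested muscle markers passed the adjusted threshold and 0 had an unadjusted p under 0.05, and DESeq2 and limma voom passed 0. The log2 fold change was positive for 5 of the 9 and negative for 4, with a median of 0.16. Acta1, skeletal muscle actin, was at 18.1 ± 5.60 CPM in KO and 12.5 ± 4.29 CPM in WT, and Tnnt3, a fast-muscle troponin, at 8.60 ± 3.08 CPM in KO and 6.14 ± 2.39 CPM in WT. The 8 nerve and glia markers summed to 206, 241, 195 and 240 CPM in KO 1, 3, 4 and 5, against 166, 188, 184 and 165 CPM in WT 2, 3, 4 and 5. All 8 had a positive log2 fold change, with a median of 0.64, as had 8607 of all 16205 genes tested. An unadjusted p under 0.05 was found for 4, all higher in KO, and for 1410 of the 16205 genes in that direction. By edgeR 0 passed the adjusted threshold, while 2 passed in DESeq2 (2.86% over all genes) and 2 in limma voom (6.62%), Tubb3 in both. Tubb3, a neuronal tubulin, was at 53.0 ± 7.52 CPM in KO and 34.4 ± 3.70 CPM in WT. None of these 18 markers was at 0 in all libraries. Gfap, an intermediate filament of astrocytes and of non-myelinating Schwann cells, was singled out after its values were seen. It was at 2.57, 11.4, 6.03 and 3.54 CPM in KO 1, 3, 4 and 5, against 4.65, 2.91, 3.32 and 1.87 CPM in WT 2, 3, 4 and 5. Within KO and within WT its libraries had the same order as for Aqp4, with KO 3 highest and KO 1 lowest in KO, and WT 2 highest and WT 5 lowest in WT. The part of these cells in the Aqp4 level was not tested. The genes most like Aqp4 were Cop1 (r = 0.904), a ubiquitin ligase, Rint1 (r = 0.873) and Btbd10 (r = 0.862), and Cop1 was the only gene with an r of at least 0.9. With the group means removed r was 0.916, 0.891 and 0.864 for Cop1, Rint1 and Btbd10.

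The genes of the dystrophin complex, which anchors Aqp4 at the membrane in muscle and glia, all passed the filter on low counts. By edgeR 0 of 13 members passed the adjusted threshold and 1 had an unadjusted p under 0.05 (15.7% over all genes). Their median log2 fold change was -0.014, and 0 passed in DESeq2 or limma voom. Utrn, the dystrophin homolog utrophin, was at 94.4 ± 28.8 CPM in KO and 121 ± 7.43 CPM in WT, with KO 5 lowest at 56.9 CPM.

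Aqp5, the apical water channel of salivary, lacrimal and sweat gland cells, lies on chromosome 15 from 99590782 to 99594829 (plus strand, 4 merged exons). It had 0, 1, 2 and 7 reads in KO 1, 3, 4 and 5, against 0, 1, 5 and 0 reads in WT 2, 3, 4 and 5. The groups overlapped, and 3 of the 8 libraries held none. The 10 KO reads gave 0.123 CPM (95% Poisson interval 0.0592 to 0.227) and the 6 WT reads 0.0772 CPM (0.0283 to 0.168), so a difference was not detectable at this depth. A count of 0 allows up to 0.164 CPM in KO 1 and 0.170 CPM in WT 5, taking 3 reads as the limit. Genes most like Aqp5 were not sought, since it did not pass the filter. Salivary markers were low as well: of 9, 3 were tested, Smr3a had no read in any library, and Bpifa2, Dcpp1, Prol1, Mucl2 and Lpo reached at most 0.190 CPM. Amy1, an amylase, was at 1.23 ± 0.208 CPM in KO and 1.13 ± 0.234 CPM in WT, and Bhlha15, a transcription factor of secretory cells, at 0.970 ± 0.381 CPM in KO and 0.845 ± 0.417 CPM in WT. The 9 markers summed to 34.1 to 56.1 CPM in KO and 32.3 to 70.2 CPM in WT, nearly all of it Car6, a secreted carbonic anhydrase, at 44.7 ± 10.5 CPM in KO and 43.0 ± 16.9 CPM in WT. In edgeR, DESeq2 and limma voom 0 of the 3 tested passed, and 0 had an unadjusted p under 0.05 in edgeR.

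To compare levels between genes, CPM was divided by the gene length given in the deposited table, in kb. On this scale Aqp1 was at 72.7 ± 6.13 CPM per kb in KO and 68.0 ± 3.23 in WT, Aqp3 at 2.93 ± 0.435 in KO and 7.19 ± 2.24 in WT, and Aqp11 at 0.462 ± 0.0217 in KO and 0.614 ± 0.0574 in WT (SD, n = 4 each). Aqp4 was at 0.524 ± 0.493 CPM per kb in KO and 0.262 ± 0.174 in WT, and Aqp5 at 0.0483 and 0.0274 in KO and WT. Over all libraries Aqp1 was 13.9 times as high as Aqp3, and Aqp3 9.40 times as high as Aqp11, with no overlap of the 8 values at either step. The step from Aqp3 to Aqp11 rests in part on gene lengths of 1829 and 9418 bases. In CPM the KO values of these genes overlapped, with Aqp3 at 4.31 and Aqp11 at 4.40 CPM in KO 3. Aqp11 and Aqp4 did not differ beyond their spread in KO, but in WT each Aqp11 value was above each Aqp4 value. Aqp4 and Aqp9, and Aqp9 and Aqp5, overlapped in both groups. Among the 16205 genes tested, ranked by CPM per kb, Aqp1 lay at percentile 96.7, Aqp3 at 54.7, Aqp11 at 14.1 and Aqp4 at 10.3. The ratio of Aqp1 to Aqp3, per kb, was 21.8, 28.5, 22.1 and 28.2 in KO 1, 3, 4 and 5, against 7.45, 8.09, 18.2 and 8.83 in WT 2, 3, 4 and 5. It was above every WT value in each KO library, and WT 4 again lay nearest to KO. The plot of the level order shows the same steps.

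**Figure D3:**
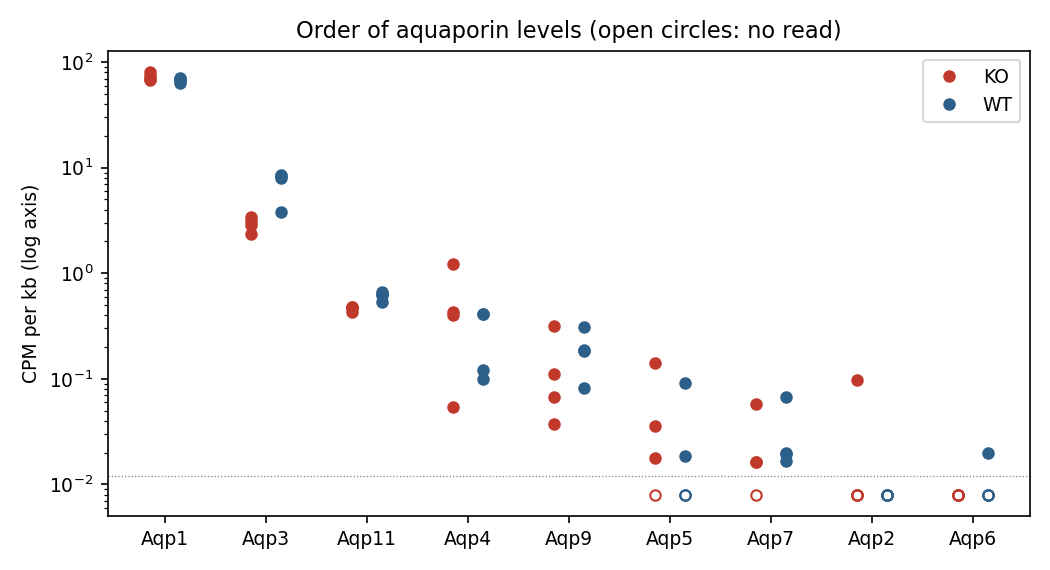
Level of each aquaporin with at least 1 read, in CPM per kb of gene length (log axis), for each KO library (red) and WT library (blue). Open circles under the dotted line stand for libraries with no read. Aqp1 and Aqp3 each stand apart from the next gene, and from Aqp11 downward each gene overlaps the next over the 8 libraries.

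The rest of the family was rare or not detected. Aqp9, a glycerol and urea channel of liver and leukocytes (chromosome 9, 71110659 to 71168682), was the only other aquaporin that passed the filter. It was at 1.31, 0.459, 0.276 and 0.156 CPM in KO 1, 3, 4 and 5, against 0.775, 0.764, 1.28 and 0.339 CPM in WT 2, 3, 4 and 5. The groups overlapped, with KO 1 above all WT libraries, and the log2 fold change was -0.56 (SE 0.59, adjusted p = 0.65 in edgeR). Without KO 1 it was -1.39 (SE 0.54) and without WT 4 it was -0.22 (SE 0.66). Aqp7, the glycerol channel of fat cells, had 5 reads in KO and 7 in WT, Aqp2, the vasopressin-regulated channel of the kidney, had 3 reads in KO 3 and none elsewhere, and Aqp6, a kidney channel of intracellular vesicles, had 1 read in WT 4. Aqp8 and the pancreatic Aqp12 had no read in any library, which allows up to 0.0370 CPM over the KO libraries and 0.0386 CPM over the WT libraries. The lens channel Mip is also listed at 0, but 1223 of its exon bases are shared with Gm26847 on the opposite strand, and with the use of strand unknown its reads may not have been counted. Markers of fat cells were low too, with 2 of 6 tested and summed levels of 3.13 to 4.48 CPM in KO and 2.66 to 4.37 CPM in WT. By edgeR 0 passed and 0 had an unadjusted p under 0.05, DESeq2 passed 0 and limma voom passed Plin4 (6.62% over all genes). Plin4, a lipid droplet protein, was at 0.277 ± 0.268 CPM in KO and 0.564 ± 0.101 CPM in WT, and Fabp4, a fatty acid carrier, at 3.34 ± 0.591 CPM in KO and 2.53 ± 0.507 CPM in WT.

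Genes of cell volume control were set beside the aquaporins as well. Of 22 listed genes of cell volume and osmotic response, 21 were tested. By edgeR 0 passed the adjusted threshold, 1 higher and 2 lower had an unadjusted p under 0.05 (15.7% over all genes), and the median log2 fold change was -0.063 against 0.021 over all genes. DESeq2 passed 0 and limma voom 3 (6.62% over all genes), namely Lrrc8b, Trpv4 and Clcn3. Trpv4, a calcium channel opened by cell swelling, was at 19.3, 18.8, 17.8 and 18.6 CPM in KO 1, 3, 4 and 5, against 14.6, 13.1, 13.1 and 16.4 CPM in WT 2, 3, 4 and 5. Its groups did not overlap, which held for 1 of the 21 genes here and for 10.9% of all genes (log2 fold change 0.38, SE 0.12, adjusted p = 0.18 in edgeR). Lrrc8b, a subunit of the volume-regulated anion channel, was at 98.7, 118, 102 and 86.5 CPM in KO 1, 3, 4 and 5, against 157, 137, 115 and 135 CPM in WT 2, 3, 4 and 5, with KO 3 above WT 4 (log2 fold change -0.43, SE 0.13, adjusted p = 0.18). Clcn3, an endosomal chloride-proton exchanger, was at 52.7 ± 11.0 CPM in KO and 70.7 ± 5.52 CPM in WT. Nfat5, the transcription factor of the hypertonic response, was at 127 ± 48.4 CPM in KO and 179 ± 23.3 CPM in WT, with KO 5 lowest at 63.6 CPM. The osmolyte genes Slc6a6, Slc5a3 and Akr1b3, a taurine carrier, an inositol carrier and aldose reductase, had log2 fold changes of -0.14, -0.14 and 0.25. Slc12a2, the sodium, potassium and chloride cotransporter that loads secretory epithelia, was at 45.6 ± 5.91 CPM in KO and 50.4 ± 6.78 CPM in WT. Clcn3, Nfat5, Slc12a2 and the osmolyte genes were chosen after their values were seen.

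Genes that handle glycerol, the other solute of Aqp3, Aqp7 and Aqp9, did not pass. Of 9 listed symbols 8 were in the table and tested, Gyk being an older name for Gk. By edgeR 0 passed the adjusted threshold and 1, Gpd2, had an unadjusted p under 0.05 (15.7% over all genes). The list's median log2 fold change was 0.11, and DESeq2 and limma voom passed 0. Gpd2, the mitochondrial glycerol phosphate dehydrogenase, was at 30.4, 33.2, 32.2 and 22.1 CPM in KO 1, 3, 4 and 5, against 37.3, 40.9, 36.4 and 32.8 CPM in WT 2, 3, 4 and 5. KO 3 lay above WT 5, so the groups overlapped. Pnpla2, the triglyceride lipase that starts glycerol release, was at 38.0 ± 6.08 CPM in KO and 29.9 ± 6.96 CPM in WT. Gk, glycerol kinase, was at 5.17 ± 0.629 CPM in KO and 5.57 ± 0.352 CPM in WT.

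**Figure D4:**
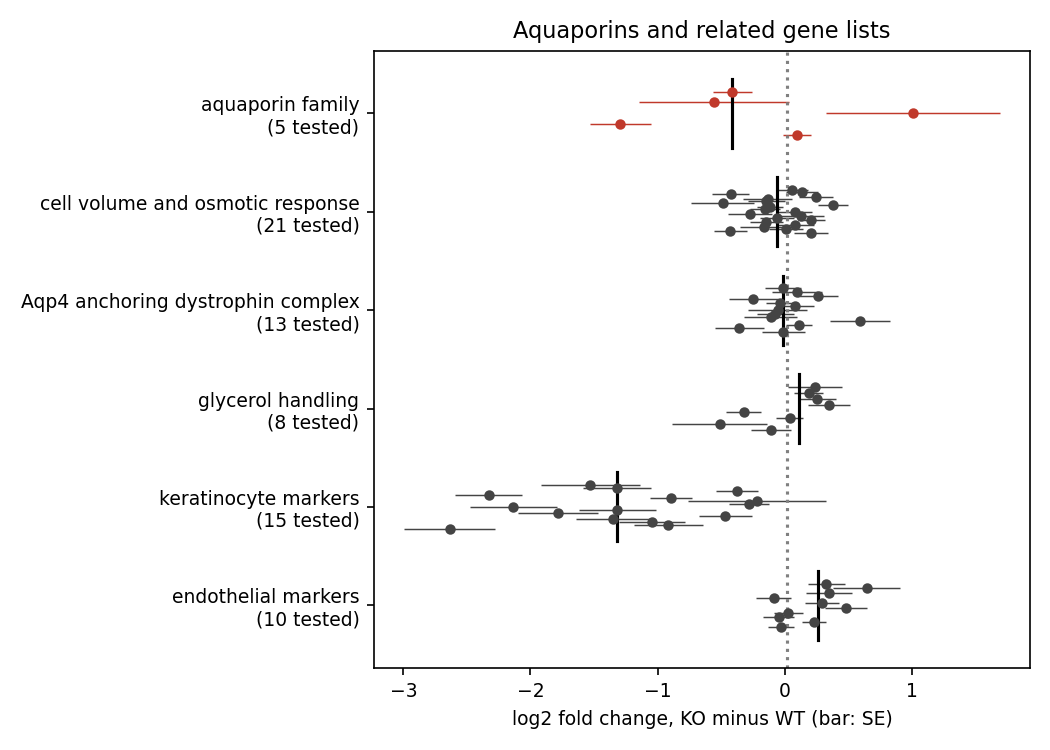
Log2 fold change, KO minus WT, of each tested gene (points, with SE) in the aquaporin family (red) and in 5 other lists (grey), with the list median as a black bar and the median of all genes tested, 0.021, as a dotted line. Aquaporins run from -1.29 (Aqp3) to 1.01 (Aqp4), the volume, anchoring and glycerol lists lie around 0, the keratinocyte list has a median of -1.32 and the endothelial list of 0.26.

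The genes most like Aqp1 over the 8 libraries were Smim20 (r = 0.975), Tax1bp3 (r = 0.974) and Chchd5 (r = 0.970), and 160 of the 9734 genes compared had an r of at least 0.9. All 3 were highest in KO 5 and lowest in WT 2, as Aqp1 was, a likeness for which they were picked. Tax1bp3 was at 168, 147, 144 and 187 CPM in KO 1, 3, 4 and 5, against 133, 149, 158 and 151 CPM in WT 2, 3, 4 and 5. Of the other marker lists set beside the aquaporins, the 8 mesenchyme and pulp markers summed to 4746 to 6962 CPM in KO and 3057 to 4934 CPM in WT. Past the adjusted threshold were 0 in edgeR, 6 in DESeq2 and 7 in limma voom, and 6 had an unadjusted p under 0.05 in edgeR. Over all genes, DESeq2 passed 2.86%, limma voom 6.62%, and 15.7% had an unadjusted p under 0.05 in edgeR. The same shares stand beside the counts of each list below. Sfrp2, a Wnt antagonist of mesenchyme, was at 44.4 ± 8.47 CPM in KO and 21.9 ± 6.12 CPM in WT, and Col6a1, a collagen VI chain, at 229 ± 42.3 CPM in KO and 129 ± 20.8 CPM in WT. The 6 osteoclast markers summed to 334 to 645 CPM in KO and 179 to 426 CPM in WT, with 0 of 5 tested past the threshold in edgeR, DESeq2 or limma voom and 1 at an unadjusted p under 0.05. Mmp9, a gelatinase of osteoclasts, was at 114 ± 25.0 CPM in KO and 68.8 ± 23.8 CPM in WT, and Acp5, their acid phosphatase, at 119 ± 50.5 CPM in KO and 73.2 ± 29.9 CPM in WT. Of the 5 odontoblast genes Smpd3, a sphingomyelinase of mineralizing tissue, passed in edgeR and DESeq2 and, with Col1a1, in limma voom. In edgeR the call was lost with DESeq2 size factors, library totals or the Xist covariate, and without KO 1, KO 3, KO 4, WT 2, WT 3 or WT 5. It was also lost in the fits on only the libraries numbered 3, 4 and 5. Smpd3 was at 67.0 ± 2.85 CPM in KO and 40.3 ± 3.78 CPM in WT. Of the 9 enamel organ genes 0 passed in edgeR (1 at an unadjusted p under 0.05), 1 in DESeq2 and 2 in limma voom. Their log2 fold changes were positive for 5 and negative for 4, with a median of 0.041. Odaph, an enamel protein of maturation, was at 70.3 ± 19.2 CPM in KO and 34.1 ± 6.61 CPM in WT, and Amelx, the main enamel matrix protein, at 7987 ± 2289 CPM in KO and 5423 ± 1933 CPM in WT. The part of any of these tissues in the aquaporin levels was not tested.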

How the data were processed

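Per the labels' protocols, polyA RNA of 4 KO and 4 WT libraries was fragmented, made into cDNA and sequenced. The authors deposited 1 table of counts, whole numbers of reads per Ensembl gene and library that were not normalised, with gene lengths and coordinates. CASAVA and mm39 are named, per the submitters' processing notes. The coordinates are those of GRCm38: of 54409 gene IDs found in GENCODE M21, 98.8% had the same start. Aqp4 is given as in the deposited table, whose ends differ from M21. The sources used here give no aligner, counter or use of strand. None of the 5 aquaporins shared exon bases with another gene in M21.

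Of 54532 genes, 16205 passed filterByExpr at a minimum count of 10 and a minimum total of 15. The test of KO against WT was the robust quasi-likelihood test of edgeR 4.0.16 in R 4.3.3 after TMM scaling, with no covariate, two-sided, with Benjamini-Hochberg adjustment over all genes tested and a threshold of 0.05. SE was taken as |log2 fold change| over the root of the F statistic. The procedure was tested on simulated data. DESeq2 1.42.0, limma voom with library quality weights (limma 3.58.1), other scalings, filters, an Xist covariate and fits without single libraries were alternatives. Floors take 3 reads; floors and intervals cover counting error only, since reads without molecular identifiers are not independent molecules.

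The aquaporins and lists were chosen with earlier results of these data known. Named were the family, of each list at most 3 called members or, failing that, the 2 lowest in p, Wdr72, and the 3 protein-coding genes with a mean of at least 10 CPM and the highest Pearson r of log2 CPM (prior count 2) with each aquaporin. Markers named beyond this rule were chosen after their values were seen. Upstream sequences are from RefSeq (GRCm38.p6), which held 11 of the 12 aquaporins. Values of some genes that this rule names are not reported here.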

Additional observations from a re-analysis of the deposited data

Results flagged for a closer look

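Of 45 sets of 4 libraries examined, 4 held a library far from the other 3, where chance gives about 1 in 20. For Aqp3, WT 4 was at 7.03 CPM and the other WT libraries at 14.6 to 15.6 CPM. For Aqp7, WT 3 was at 0.191 CPM, from 4 reads, and the other WT libraries at 0.0475 to 0.0565 CPM, from 1 read each. The summed basal epithelial markers were at 21950 CPM in KO 5 and at 12878 to 14185 CPM in the other KO libraries. The summed odontoblast markers were at 55094 CPM in WT 5 and at 27554 to 31139 CPM in the other WT libraries.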

How the results depend on the processing

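Over 19 alternatives the log2 fold change of Aqp3 ran from -1.51 (without WT 4) to -0.47 (Xist covariate), that of Aqp11 from -0.50 to -0.37, and that of Aqp4 from 0.16 to 1.70, each keeping its sign. Aqp1 ran from -0.0010 (without KO 1 and KO 5), the only change of sign, to 0.12. The cause of these shifts was not tested. Aqp3 passed the threshold in 4 of the 19 and Aqp11 in 1. Of the aquaporin family 1 gene passed with DESeq2, 2 with quality-weighted limma voom and 1 with no filter on low counts, and 0 to 1 when a library was left out. Of the cell volume list 3 passed with limma voom. Over all genes, 2 higher and 3 lower became 296 and 168 with DESeq2, 704 and 369 with limma voom, and 180 and 61 with no filter. There was 1 higher gene with DESeq2 size factors, 0 with library totals, 0 higher and 1 lower with the Xist covariate, and 7 higher without KO 1 and KO 5. Without 1 library the counts ran from 0 to 35 higher and from 0 to 20 lower. A replicate block on the libraries numbered 3, 4 and 5 gave 0 higher and 1 lower, as did those libraries with no block. Deviations of same-numbered libraries had correlations of -0.14, -0.092 and -0.12, and those of differently numbered libraries ran from -0.235 to 0.274. The same-numbered values lie within that range, so they cannot tell whether the numbers pair libraries. The order of the mean aquaporin levels was the same with CPM per gene and with library totals for all 5 genes, though in CPM per gene Aqp3 and Aqp11 overlapped in KO. With group means removed, 1 of the 12 most similar genes was kept. For Aqp5 depth allows no comparison.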
